A study of Anser anser with 2 samples.

Results

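The miRNAs described here are miR-142, miR-150, miR-155, miR-181 and miR-223, all best known from white blood cells, as read in 2 small RNA libraries of goose liver. The 5 numbers were chosen with earlier results of these data known. Reads were then taken by name alone. Every read whose listed miRNA had 1 of these 5 numbers was kept, with any letter and either arm. This gave 13 miRNA and arm names of 1138, 333 distinct read sequences (tags) of 26022, and 2843 reads in control and 3298 in overfed liver. The geese were male Landes birds aged 90 days, a breed used to produce fatty liver, and 60 of them were split between a control and an overfed group. Control geese ate a basal diet freely, with 2873 kcal and 171 g of protein per kg, and their liver is labelled normal. Overfed geese received a carbohydrate-rich diet for 21 days, with 3353 kcal, 15 g of fat and 76 g of protein per kg, and their liver is labelled fatty. Each group has 1 library, of 9178938 listed miRNA reads for control and 9737540 for overfed liver; the number of birds behind a library is not stated. With 1 library a group no test between diets was possible, so each difference below is between these 2 libraries and each interval covers counting error only.

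A miRNA is cut from a hairpin precursor whose 2 strands, the 5p and 3p arms, can both be kept, and it finds its target mRNAs mainly through its seed, bases 2 to 8 from the 5′ end. miR-142 is made in nearly all cells of the blood lineage. miR-223 is a miRNA of granulocytes and monocytes, miR-150 of mature B and T lymphocytes, and miR-155 is induced when lymphocytes and macrophages are activated. miR-181a acts in developing lymphocytes of mice and tunes the sensitivity of the T cell receptor there, but the miR-181 family is also made outside the blood. Liver holds blood in its vessels and sinusoids as well as resident macrophages and lymphocytes.

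The most common goose tag of each of the 5 members past the minimum of 10 reads per 1000000 listed miRNA reads (RPM) is shown first, with the seed in capitals. Starts and ends below are counted from this tag, while levels sum all tags listed under a name.
miR-142-5p: cCCATAAAgtagaaagcacta
miR-223-3p: tGTCAGTTtgtcaaataccccat
miR-150-5p: tCTCCCAAcccctgtaccagcg
miR-181a-5p: aACATTCAacgctgtcggtgag
miR-181b-5p: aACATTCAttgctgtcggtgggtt
miR-181a-5p and miR-181b-5p shared their seed, and each other seed was carried by 1 of the shown tags. From miR-181a to miR-181b the shown tags differed by A9T, C10T and A21G, with positions counted from 1 at the 5′ end. The sequences were read as DNA, so T stands for the U of the RNA.

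Leukocyte miRNAs were a small part of liver miRNA, 0.0310% of listed reads in control and 0.0339% in overfed liver. Their sum was 309.7 RPM in control and 338.7 RPM in overfed liver, a log2 ratio of overfed over control of 0.13 (exact 95% interval 0.06 to 0.20). The ratio was 0.03 (-0.04 to 0.10) with DESeq2's median-of-ratios scaling and -0.11 (-0.18 to -0.03) with edgeR's TMM scaling. That scaling lowers every log2 ratio by the same amount, so directions near 0 depend on it. In bulk liver, a change in the number of leukocytes and a change of a miRNA in each leukocyte cannot be told apart. Nor can a change in cells outside the blood that make miR-181. miR-181 gave 59.1% of the members' reads in each library and miR-142 gave 27.1% and 26.0%. miR-223 gave 7.32% in control and 10.3% in overfed liver, while miR-150 gave 6.51% and 4.55%.

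**Figure D1:**
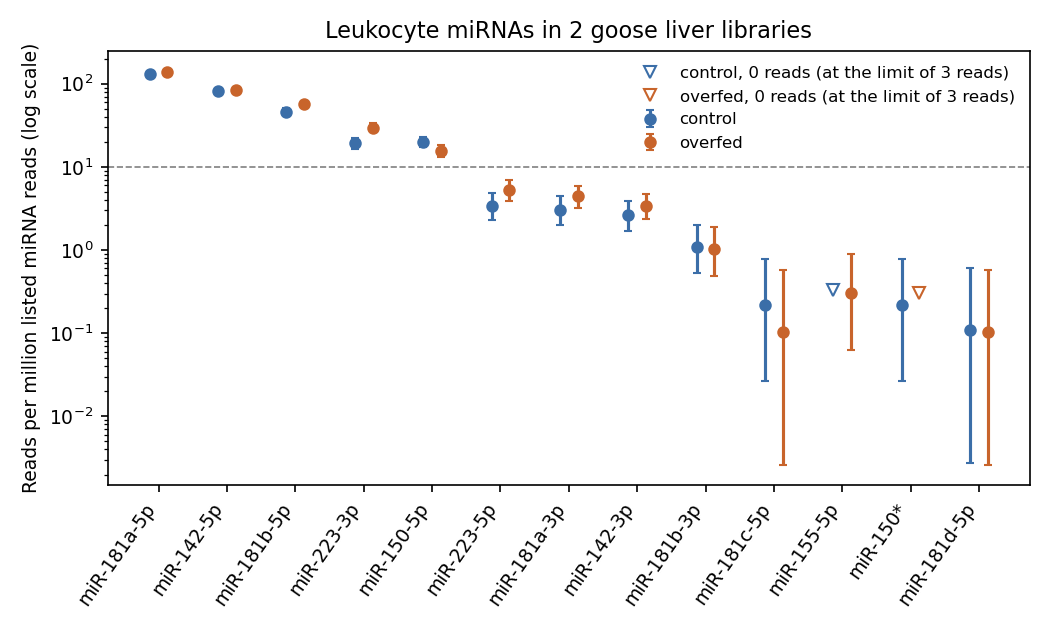
Level of the 13 leukocyte miRNA names in RPM, on a log axis, in the control and the overfed library (1 library each). Bars are exact 95% Poisson intervals, triangles mark names with 0 reads at the limit of 3 reads, and the dashed line is the minimum of 10 RPM, which 5 names passed.

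The rule of size asked for a mean of 10 RPM or more, a change of 2 times or more, up or down, and a ratio whose interval leaves out 1. Of the 5 members past the minimum 0 met it, against 8.96% of all 134 miRNAs past the minimum (7.46% higher in overfed liver and 1.49% lower). A change of 1.5 times or more was seen for 1 of the 5, miR-223-3p, against 26.1% of the 134 in either direction and 16.4% higher. With TMM scaling miR-223-3p (0.39) no longer reached 1.5 times and miR-150-5p did, as lower (-0.61). Of the 134 miRNAs, 16 were higher and 26 lower by 1.5 times or more with that scaling. With median-of-ratios scaling 0 of the 5 members reached 1.5 times, against 17 higher and 18 lower of the 134. The median log2 ratio was 0.06 over these 5 members and 0.09 over the 134 miRNAs. The intervals of 3 of the 5 members excluded a log2 ratio of 0, against 76.9% of the 134: 2 members were higher, against 45.5%, and 1 was lower, against 31.3%. These counts depend on the scaling: 1 was higher and 3 lower with TMM factors (20.9% and 47% of the 134), and 4 higher and 0 lower with miR-122-5p left out of the total (52.6% and 25.6% of the other 133). The other 8 names stayed below 10 RPM in mean and are described by their reads.

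miR-142-5p, the marker of blood cells at large, had 747 reads in control and 824 in overfed liver, or 81.4 and 84.6 RPM. Its log2 ratio of 0.06 (-0.09 to 0.20) was within counting error with these totals. It was lower beyond counting error with TMM scaling (-0.18, -0.32 to -0.04) and higher with miR-122-5p left out of the total (0.15, 0.0047 to 0.29), and stood at -0.04 with median-of-ratios scaling. It ranked 58th of all names by level in control and 60th in overfed liver. The other arm, miR-142-3p, had 24 and 33 reads, 2.61 and 3.39 RPM. The 5p arm therefore held 96.9% of miR-142 reads in the control (95.4% to 98.0%) and 96.1% in the overfed library (94.6% to 97.3%), and the arm balance did not differ beyond counting error.

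miR-223-3p, the miRNA of granulocytes and monocytes, had 177 reads in control and 289 in overfed liver, or 19.3 and 29.7 RPM. Its log2 ratio of 0.62 (0.35 to 0.90) was the highest of the 5 members past the minimum and stood 21st from the top among the 134 miRNAs. The minor arm, miR-223-5p, had a similar ratio, with 31 and 51 reads, 3.38 and 5.24 RPM, with a log2 ratio of 0.63 (-0.04 to 1.33). Both arms come from 1 precursor, so they are not separate evidence. The 3p arm held 85.1% of miR-223 reads in the control (79.5% to 89.6%) and 85.0% in the overfed library (80.8% to 88.6%). Summed over arms, miR-223 stood at 22.7 and 34.9 RPM (log2 ratio 0.62, 0.37 to 0.88). With TMM scaling the log2 ratio of miR-223-3p was 0.39, and its interval still excluded 0 (0.11 to 0.66). Kept to tags with no mismatch and no gap, miR-223-3p had 34 reads in control and 80 in overfed liver. Its log2 ratio there was 1.14 (0.54 to 1.76), past 2 times but with a mean below 10 RPM. All of those reads were of tags of 20, 21 and 22 nt. Reads of 23 nt or more, such as the most common tag with its 1 gap, were left out. The setting thus also selects by length, and ratios by length are given further below. Tags with no mismatch and no gap hold 0% of miR-223 reads in the 5p arm in control and 4.76% in overfed liver, so the arm balance rests on tags that differ from a listed reference.

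miR-150-5p, the lymphocyte miRNA, had 183 reads in control and 150 in overfed liver, or 19.9 and 15.4 RPM. It was lower in the overfed library beyond counting error, with a log2 ratio of -0.37 (-0.69 to -0.05). With miR-122-5p left out of the total its interval included 0 (-0.28, -0.60 to 0.04). The sum over its tags includes 1 that hardly resembles the rest: the tag tatcccaccctcgtcgcca, listed under miR-150 of another species with 2 mismatches and 2 gaps, shared at most 5 bases in a row with the most common miR-150-5p tag. It went from 6 to 15 reads, and its seed was also that of 28 control and 50 overfed reads listed under other names, first among them miR-2478. Kept to tags that shared at least 15 bases in a row with the most common tag of their member, miR-150-5p had a log2 ratio of -0.47 (-0.81 to -0.14). That restriction was chosen after the values were seen.

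miR-181a-5p was the most abundant of the leukocyte miRNAs, with 1215 reads in control and 1331 in overfed liver, or 132.4 and 136.7 RPM. Its log2 ratio of 0.05 (-0.07 to 0.16) was within counting error with these totals. It was lower beyond counting error with TMM scaling (-0.19, -0.30 to -0.08) and higher with miR-122-5p left out of the total (0.14, 0.03 to 0.25), and stood at -0.05 with median-of-ratios scaling. miR-181b-5p, which has the same seed, had 423 and 562 reads, or 46.1 and 57.7 RPM, with a log2 ratio of 0.32 (0.14 to 0.51). Its interval included 0 with TMM scaling (0.09, -0.10 to 0.27) and with tags of no mismatch and no gap (0.14, -0.13 to 0.40). All reads with the shared miR-181 seed came to 176.5 RPM in control and 192.2 RPM in overfed liver. Their log2 ratio was 0.12 (0.03 to 0.22) with these totals. TMM scaling shifts each log2 ratio by -0.24, more than the size of this one, so its direction depends on the scaling.

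The minor arms of miR-181 were scarce. miR-181a-3p had 28 reads in control and 43 in overfed liver, a log2 ratio of 0.53 (-0.19 to 1.27), and miR-181b-3p had 10 in each. The 5p arm held 97.7% of miR-181a reads in the control (96.8% to 98.5%) and 96.9% in the overfed library (95.8% to 97.7%). For miR-181b it held 97.7% (95.8% to 98.9%) and 98.3% (96.8% to 99.2%). Tags of the miR-181a 3p arm came in 2 versions that differed by T16C, counted from 1 at the 5′ end. They are shown with that base in capitals, because 2 versions of 1 arm were read here beside a single common 5p sequence.
miR-181a-3p with T: accatcgaccgttgaTtgtacc
miR-181a-3p with C: accatcgaccgttgaCtgtacc
Among tags that began with the bases up to that position, the T version had 22 control and 33 overfed reads and the C version 4 and 7. The T version was the more common in each library. miR-181c-5p had 2 and 1 reads and miR-181d-5p 1 and 1, so no level can be given for these letters.

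miR-155-5p, the miRNA of activated lymphocytes and macrophages, was not read in control and had 3 reads in overfed liver. A count of 0 allows up to 0.327 RPM in the control library, and 3 reads are 0.308 RPM in the overfed library, so no difference was detectable at this depth. The 2 reads listed under miR-150* were single copies of 2 unlike tags with 2 mismatches each.

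**Figure D2:**
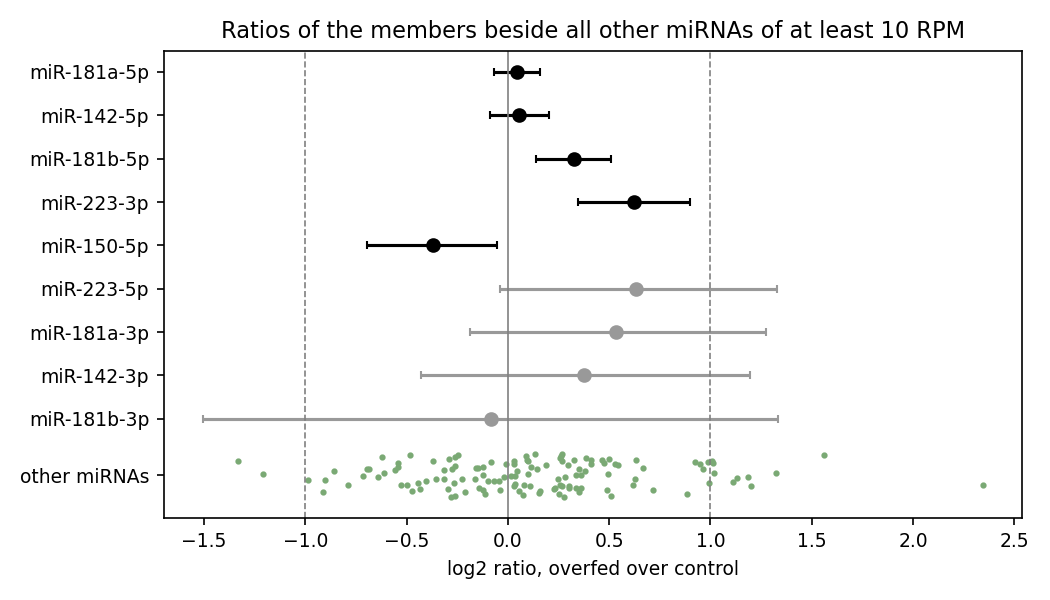
Log2 ratio of overfed over control for the 9 leukocyte names with at least 10 reads in each library, with exact 95% intervals that cover counting error only; black names passed 10 RPM and grey ones did not. Green points are the other 129 miRNAs past 10 RPM, spread at random in height, and dashed lines mark 2 times in either direction: all 5 black points lie between the dashed lines.

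Ratios between 2 members within a library do not depend on how the libraries are scaled. Of the 10 pairs of the 5 members past the minimum, 2 changed by at least 1.5 times, against 44.7% of all 8911 pairs of the 134 miRNAs. The largest change was that of miR-223-3p over miR-150-5p, the myeloid over the lymphoid miRNA. There were 0.967 miR-223-3p reads for each miR-150-5p read in control and 1.93 in overfed liver, a log2 change of 0.99 (0.57 to 1.42). miR-181b-5p over miR-150-5p went from 2.31 to 3.75 reads, a log2 change of 0.70 (0.32 to 1.07). miR-223-3p over miR-142-5p went from 0.237 to 0.351, a log2 change of 0.57 (0.25 to 0.88). miR-181a-5p and miR-142-5p, the most abundant members, kept their ratio within counting error, with 1.63 and 1.62 miR-181a-5p reads for each miR-142-5p read and a log2 change of -0.01 (-0.19 to 0.17).

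Reads of miR-142-5p began at 3 main positions, which give 3 different seeds. The most common tag of each start is shown with its seed in capitals, because the seed moves along the same sequence.
start of the most common tag: cCCATAAAgtagaaagcacta
start 2 bases later: cATAAAGTagaaagcacta
start 3 bases later: aTAAAGTAgaaagcactactaa
The first start held 71.9% of placed miR-142-5p reads in the control (535 of 744 reads, 68.5% to 75.1%) and 73.3% in the overfed library (601 of 820, 70.1% to 76.3%). The start 2 bases later held 15.7% (13.2% to 18.5%) and 15.0% (12.6% to 17.6%). The start 3 bases later held 11.96% (9.7% to 14.5%) and 10.6% (8.6% to 12.9%). The 3 starts thus had about the same shares in both libraries, and only 1 control read and 2 overfed reads began 1 base after the first start. The reference listed for the chicken, cCCATAAAgtagaaagcactac, begins at the first start, and that listed for the mouse, cATAAAGTagaaagcactact, at the start 2 bases later. Reads that began where their own listed reference begins were 87.6% in control and 88.3% in overfed liver. That share is not of 1 start: it takes in the first start and the start 2 bases later, because listed references begin at both.

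The end of miR-142-5p reads moved with their start. Reads from the first start had a mean end of -0.30 bases from the end of the most common tag in control and -0.26 bases in overfed liver. Reads that began 2 bases later had mean ends of 1.75 and 1.69 bases. Reads that began 3 bases later had mean ends of 3.87 and 3.89 bases, and 77 of 89 control reads and 74 of 87 overfed reads of that start ended exactly 4 bases after that of the most common tag. Mean length was 20.7 nt in each library for reads of the first start and 21.9 nt in each for those 3 bases later.

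**Figure D3:**
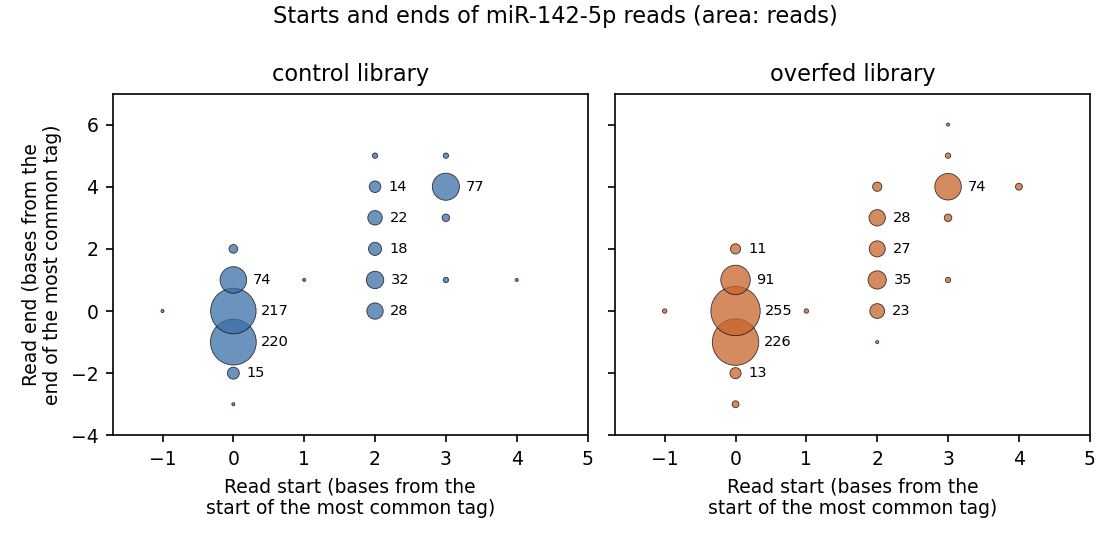
Start and end of miR-142-5p reads, in bases from the start (horizontal) and the end (vertical) of the most common tag, for the control library (left) and the overfed library (right); the area of a circle is the number of reads, printed where it is at least 10. Later starts go with later ends in both libraries, and the circle at start 3 and end 4 holds 77 and 74 reads.

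miR-223-3p was the other member with more than 1 common start. The share of reads that began 1 base after the most common start was 26.7% in the control (47 of 176, 20.3% to 33.9%) and 31.3% in the overfed library (90 of 288, 25.9% to 37.0%). These reads have the seed TCAGTTT in place of GTCAGTT. The log2 ratio was 0.53 (0.20 to 0.86) for reads of the first start and 0.85 (0.33 to 1.39) for those 1 base later. With these totals both starts were thus higher in the overfed library, with overlapping intervals. TMM scaling shifts each ratio and interval by -0.24, so the interval of the first start includes 0 with it and that of the later start does not. Its reads were also spread over more tags. The 2 most common tags held 24.3% of miR-223-3p reads in control and 21.5% in overfed liver, against 49.1% to 64.8% for the other 4 members. Some of its tags are shown, because they differ in their start or their last base: the first and second most common tags, then the most common tag of the later start.
miR-223-3p ending in T: tGTCAGTTtgtcaaataccccat
miR-223-3p ending in A: tGTCAGTTtgtcaaataccccaa
miR-223-3p with the later start: gTCAGTTTgtcaaataccccaa
These tags had 30, 13 and 13 reads in control and 33, 29 and 28 in overfed liver. The form that ends in T, first in the control library, was followed closely by the others in the overfed library.

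miR-142-3p, few as its reads were, also began at several positions. The most common start, gTAGTGTTtcctactttatgg, had 13 control and 18 overfed reads, the start 1 base before it 6 and 9, and the start 1 base after it 4 and 4. The reference listed for the chicken, tGTAGTGTttcctactttatgg, begins 1 base before the most common goose start. miR-150-5p, miR-181a-5p and miR-181b-5p by contrast had 97.7% to 99.3% of placed reads at 1 start in both libraries.

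**Figure D4:**
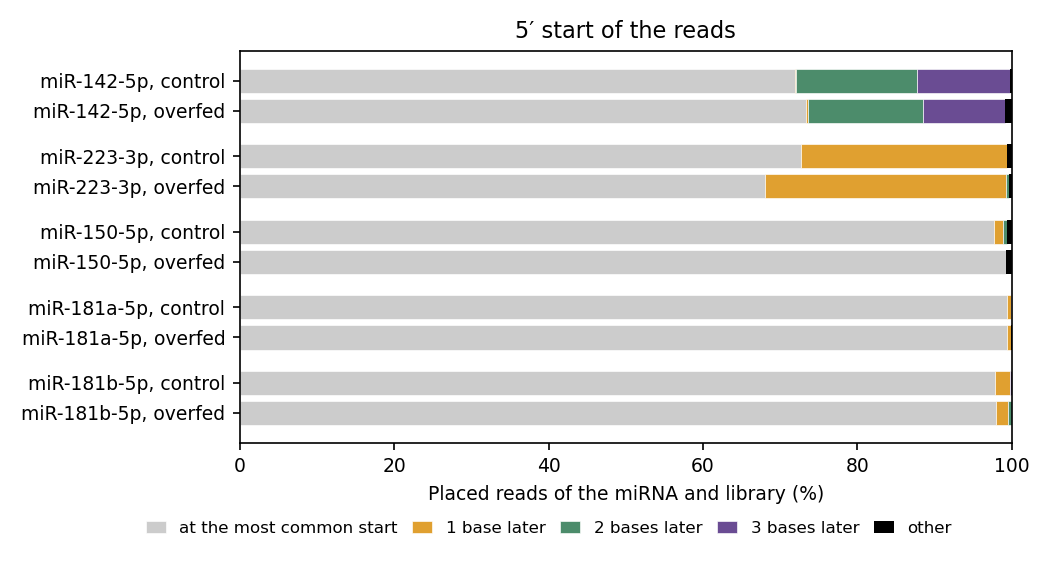
Share of placed reads by 5′ start for the 5 members with at least 100 reads in each library, counted from the most common start of each. Later starts take 26.5% to 31.6% of reads for miR-142-5p and miR-223-3p and at most 2.14% for the other 3.

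Goose miR-150-5p differed from every listed reference. All 183 control and 150 overfed reads carried at least 1 mismatch, while 7.36% of control and 5.95% of overfed miR-142-5p reads did. Against the mouse reference tCTCCCAAcccttgtaccagtg the most common goose tag had the substitutions T12C and T21C, counted from 1 at the reference's 5′ end. Both lie outside the seed, which was that of the mouse. The first 18 bases of the goose tag, which include the first of these bases, were present in 172 of 183 control reads (94.0%, 89.5% to 97.0%) and 134 of 150 overfed reads (89.3%, 83.3% to 93.8%). A count kept to tags without a mismatch would therefore miss miR-150-5p in these libraries. For miR-181a-5p, reads with a mismatch were 4.36% in the control (53 of 1215, 3.28% to 5.67%) and 1.88% in the overfed library (25 of 1331, 1.22% to 2.76%), and these intervals did not overlap. The intervals did overlap for miR-142-5p, for miR-181b-5p (4.73% and 4.98%) and for miR-223-3p (3.39% and 2.77%). The share over all listed reads is not given here, so a difference between the whole libraries cannot be judged.

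The ratio of miR-223-3p differed between read lengths. Its reads of 23 nt or more stood at 9.48 RPM in control and 10.5 RPM in overfed liver, a log2 ratio of 0.14 (-0.28 to 0.57). Its reads of 21 to 22 nt came to 5.56 and 10.8 RPM (log2 ratio 0.96, 0.46 to 1.47), and those of 20 nt or fewer to 4.25 and 8.42 RPM (0.99, 0.42 to 1.58). The share of reads of 23 nt or more was thus 49.2% of miR-223-3p reads in the control (41.6% to 56.8%) and 35.3% in the overfed library (29.8% to 41.1%). Over all listed reads, whatever their miRNA, the same share was 24.5% and 20.9%. Longer reads were thus a smaller part of listed reads in the overfed library. Most listed reads were miR-122-5p (726545 RPM in control and 743626 RPM in overfed liver), so this share need not hold for other miRNAs. The part of this length difference in the ratio of miR-223-3p was not tested. The share of reads of 23 nt or more was also lower in overfed liver for each of the other 4 members past the minimum, with intervals that overlapped. Reads of 23 nt or more were 37.1% (34.4% to 39.9%) and 33.1% (30.5% to 35.7%) of miR-181a-5p and 70.4% (65.9% to 74.8%) and 69.2% (65.2% to 73.0%) of miR-181b-5p. From the shortest to the longest class, miR-181b-5p had log2 ratios of 0.44 (-0.34 to 1.24), 0.37 (-0.01 to 0.76) and 0.30 (0.08 to 0.52). miR-150-5p had -0.19, -0.35 and -0.54 and miR-142-5p -0.05, 0.15 and -0.31, all with intervals that included 0 with these totals. miR-181a-5p went against the order of all listed reads in the shortest class, with -1.04 (-1.98 to -0.16) from 33 and 17 reads, then 0.17 (0.03 to 0.32) and -0.12 (-0.31 to 0.07). TMM scaling shifts all these ratios and intervals by -0.24, so directions near 0 and which intervals include 0 depend on the scaling. The intervals of miR-150-5p at 21 to 22 nt and at 23 nt or more exclude 0 with it. Differences between length classes do not depend on it. miR-181a-5p and miR-181b-5p also differed in length within each library: miR-181b-5p reads averaged 23.5 nt in both, and miR-181a-5p reads 22.5 nt in control and 22.4 nt in overfed liver.

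**Figure D5:**
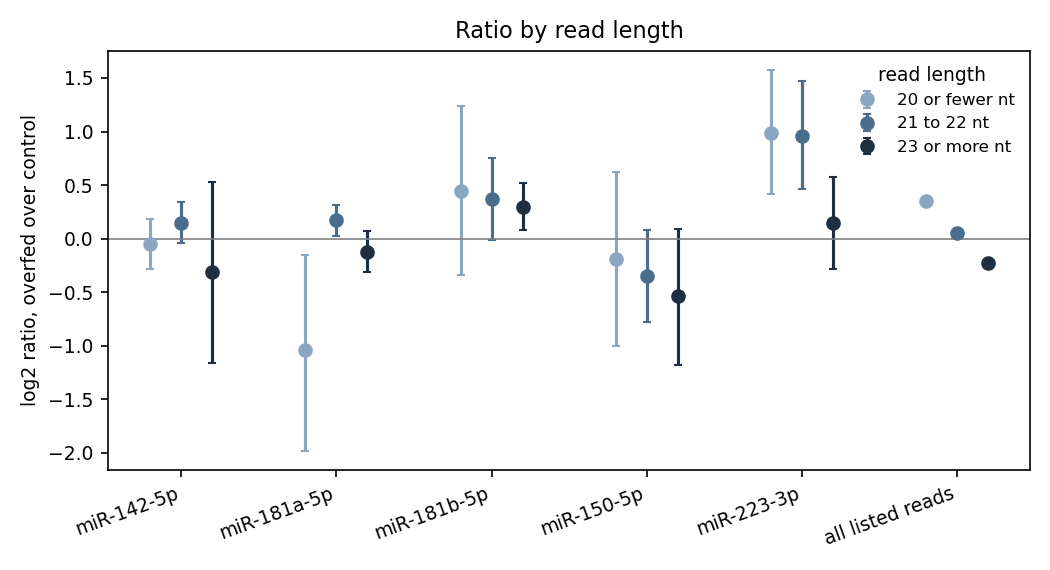
Log2 ratio of overfed over control by read length class for the 5 members past 10 RPM and for all listed reads, with exact 95% intervals that cover counting error only. For miR-223-3p the ratio is 0.99, 0.96 and 0.14 from the shortest to the longest class, and for all listed reads 0.35, 0.05 and -0.23. Most listed reads are miR-122-5p.

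Other cell types were read from miRNAs listed for them. The hepatocyte list (miR-122, miR-192, miR-194 and miR-148) stood at 728323 and 745587 RPM, nearly all of it miR-122-5p, the main miRNA of hepatocytes. Of its 5 names past the minimum 3 were higher and 1 lower beyond counting error. The lower one, miR-148a-3p, stood at 465 RPM in control and 287 RPM in overfed liver (-0.69, -0.76 to -0.62). miR-192 had only 1 and 4 reads and miR-194 11 and 16. The red cell list (miR-451, miR-144 and miR-486) stood at 359.7 RPM in control and 318 RPM in overfed liver, a log2 ratio of the sum of -0.18 (-0.25 to -0.11), with 1 of its 3 names past the minimum higher and 2 lower beyond counting error. miR-486 was almost absent, with 1 and 2 reads. The red cell sum was thus about as large as the sum of all leukocyte miRNAs, but lower in overfed liver, where the leukocyte sum was higher with these totals and lower with TMM scaling. Of that leukocyte sum, 59.1% in each library was miR-181, which is also made outside the blood, so the 2 sums do not compare white with red cells. The endothelial miR-126 stood at 87.0 and 95.5 RPM (0.13, -0.00415 to 0.27), with 1 of its 2 names higher and 1 lower beyond counting error. miR-126-5p had a log2 ratio of 0.30 (0.14 to 0.47) and miR-126-3p one of -0.31 (-0.58 to -0.05). The stellate or mesenchymal list stood at 7276 and 6029 RPM (-0.27, -0.29 to -0.26), with 1 of 7 names higher and 5 lower. The epithelial list (miR-200, miR-203 and miR-429) summed to 125.6 and 282 RPM (1.17, 1.07 to 1.27), with 1 of 3 names higher and 2 lower, and miR-203 gave 219 of the overfed RPM. Of other miRNAs linked to immune responses, the list stood at 6761 and 7303 RPM (0.11, 0.10 to 0.13), with 3 of 6 names past the minimum higher and 1 lower. The lower one, miR-146c, stood at 40.1 and 17.4 RPM (-1.21, -1.48 to -0.94) and was the only name of the list to meet the rule of size. In the same list miR-342 and miR-424 had no read in either library. The most abundant name was miR-21-5p, at 4143 and 4572 RPM, and miR-21 is not confined to leukocytes. Ratios and counts of these lists all rest on the totals of listed reads. TMM scaling shifts each log2 ratio by -0.24. That is more than the size of the ratios of the hepatocyte sum (0.03), the immune-linked sum (0.11), miR-126 (0.13) and miR-21-5p (0.14). Their direction therefore depends on the scaling, and the counts of names can change with it. For comparison, 45.5% of all 134 miRNAs had an interval above 0 and 31.3% an interval below 0 with these totals. The part of blood content or of these cell types in the leukocyte values was not tested.

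Only miR-181a-5p passed a mean of 100 RPM, and the 3 other miRNAs with the nearest log2 ratios over these 2 libraries were miR-5097 (0.04), let-7d-5p (0.06) and miR-130b (0.04).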

How the data were processed

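Total RNA of liver was extracted with Trizol, and fragments of 20 to 30 nt from 10 μg were cut from a gel for Illumina libraries, per the labels' protocols. The authors deposited the read count of each distinct tag with its best matching reference miRNA of any species as whole numbers without scaling. No source used here names the aligner, or the database and its release. The deposited alignment score was not used. Tags are listed only with a miRNA match, so the totals are not the depth of the whole libraries. One read was 0.109 RPM in the control and 0.103 RPM in the overfed library, and 0 reads allow 0.327 and 0.308 RPM (3 reads).

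Reads were summed over species by number, letter and arm. A name lacking a letter or arm, or lettered where another species' name is not (miR-142b), was joined with one of its number when a run of 18 or more bases common to both references left out no more than 2 bases of the shorter. Reads were placed by the bases 5 to 16 of the most common tag, without a mismatch. Ratios have exact conditional binomial and shares exact Clopper-Pearson 95% intervals; reads are amplified copies without molecular identifiers. Pair changes have exact conditional odds ratio intervals. No p-value was computed. The members and lists were chosen with earlier results of these data known. Named were all names with at least 10 reads in a library, and for members past 100 RPM the 3 nearest ratios. The interval script was tested on simulated counts. Scaling alternatives were edgeR 4.0.16 (TMM) and DESeq2 1.42.0, in R 4.3.3. Other computations used Python 3.11.15 with scipy 1.17.1, pandas 2.3.3, numpy 2.4.6 and, for plots, matplotlib 3.10.9. Genome positions are not given, since no miRNA gene was found in the reference table used here.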

Additional observations from a re-analysis of the deposited data

How the results depend on the processing

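No paired analysis was possible because only 1 library stands for each diet. For the same reason no replicate could be left out. The count of members that met the rule of size was 0 under each alternative except a rule of 1.5 times, which gave 1, miR-223-3p, against 26.1% of all 134 miRNAs. Of all miRNAs, 10 of 133 met it with TMM factors and 28 of 190 with miR-122-5p left out of the total. With tags of no mismatch and no gap 9 of 87 did, with tags of at least 21 bases 13 of 106, and at a minimum of 100 RPM 5 of 56. Only 1 to 13 members passed the minimum in any setting, so a count of 0 does not show that they were stable. With tags of no mismatch and no gap only 3 members passed the minimum, so miR-223-3p, past 2 times there, was not called. The log2 ratio of the members' sum was -0.11 with TMM factors, 0.029 with median-of-ratios factors and 0.22 with miR-122-5p left out of the total. These scalings shift every log2 ratio by 1 constant (-0.24, -0.10 and 0.09), so they are not separate checks. Of 69 ratios of single members under alternatives, 64 stayed within their interval and 5 did not. The 64 show little, since members with few reads had wide intervals, such as -1.51 to 1.34 for miR-181b-3p. Outside their interval with TMM factors were miR-142-5p (-0.18), miR-181a-5p (-0.19) and miR-181b-5p (0.09). Outside it with tags of no mismatch and no gap were miR-181b-5p (0.14, -0.13 to 0.40) and miR-223-3p (1.14, 0.54 to 1.76). That last setting keeps 19.2% of control and 27.7% of overfed miR-223-3p reads, none of them of 23 nt or more. It keeps no read of miR-150-5p, for which no value could be had. With tags of at least 21 bases miR-223-3p was at 0.52 (0.20 to 0.84). Of 32 shares under alternatives, 20 left their interval: 16 with tags of no mismatch and no gap, 2 with tags of at least 21 bases and 2 with starts counted from the listed reference. The 2 with starts counted from the listed reference were of miR-142-5p, whose listed references begin at more than 1 start. With no mismatch and no gap the share of the most common miR-223-3p tag is 0% by definition, since that tag has 1 gap. That setting keeps the most common tags of miR-142-5p, miR-181a-5p and miR-181b-5p and drops other reads, so their shares rise. For the other shares and the ratios the cause was not tested. Keeping tags like the most common tag of their member, and counting calls under each scaling, were chosen after seeing the data. Reads limit the rest: below 10 RPM a member had at most 51 reads in a library.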
